A study of Homo sapiens with 3 samples.

Results

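UBE2C isoforms were followed as 6 RefSeq transcripts of this gene, NM_007019, NM_181799, NM_181800, NM_181801, NM_181802 and NM_181803, taken by their identifiers. The gene was singled out with earlier results of these data in view. Counts of its isoforms past 2-fold, set beside the share of all transcripts, are therefore descriptions. The isoforms are 6 of the 25443 transcripts with a value in any sample. The 3 samples were the human embryonic kidney line that the labels call HEK293 and the study's methods HEK293T, a derivative with the SV40 large T antigen. The control was kept in normal medium, the DMSO sample in medium with 1 mM of the solvent DMSO, and the BDE-209 sample in medium with 1 µM BDE-209 and the same 1 mM DMSO. BDE-209 is decabromodiphenyl ether, a brominated flame retardant. Cells were treated for 48 h, polyA RNA was sequenced as reads of 49 bases, and each condition had 1 sample of 1 line. The control's treatment label can be read as if BDE-209 were present, while its protocol gives medium free of both compounds, and it was taken so.

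UBE2C, also called UBCH10, is a ubiquitin-conjugating (E2) enzyme of the anaphase-promoting complex (APC/C), the large ubiquitin ligase that drives cells out of mitosis. Together with its activators CDC20 and FZR1 (CDH1), the complex binds cyclin B, securin and other substrates, UBE2C places the first ubiquitins on them, and the partner enzyme UBE2S lengthens the chain, after which the proteasome destroys the substrate. UBE2C RNA and protein are highest in dividing cells, and the gene is often strongly expressed in tumours. Its transcripts differ in the exons they join, so that some encode a shortened protein.

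On GRCh37, the build of the deposited values, UBE2C (ENSG00000175063) lies on the forward strand at chr20:44441215-44445596. GENCODE gives it 8 transcripts of 476 to 914 bases, 7 of them protein coding. GENCODE and RefSeq transcripts were not paired with each other here, so no exon below is credited to a RefSeq isoform. The coding exons in which the transcripts differ are printed here because a read can tell the isoforms apart only in such exons, at a transcript's ends and at the joins between exons. The sequences run 5′ to 3′, and capitals mark bases in a 49-base stretch of the exon that is found in at most 2 of the 8 transcripts. The exon at chr20:44443023-44443109 is whole in 4 transcripts and lies early in the conserved E2 fold. The exon at chr20:44444029-44444179 is whole in 2 transcripts, UBE2C-202 and UBE2C-208. The exon at chr20:44444180-44444384 is a separate exon in 3 transcripts, UBE2C-203, UBE2C-204 and UBE2C-205, and encodes the stretch with the catalytic cysteine. UBE2C-207, which has no defined coding sequence, has a longer exon at chr20:44444082-44444384. It holds all bases of this last exon and the end of the one before it.
Exon of 87 bases: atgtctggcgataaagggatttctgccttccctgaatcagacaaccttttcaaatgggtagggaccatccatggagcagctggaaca
Exon of 151 bases: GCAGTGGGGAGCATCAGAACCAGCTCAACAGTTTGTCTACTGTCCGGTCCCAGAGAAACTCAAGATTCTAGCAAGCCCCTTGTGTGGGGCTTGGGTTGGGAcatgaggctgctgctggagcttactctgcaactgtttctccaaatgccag
Exon of 205 bases: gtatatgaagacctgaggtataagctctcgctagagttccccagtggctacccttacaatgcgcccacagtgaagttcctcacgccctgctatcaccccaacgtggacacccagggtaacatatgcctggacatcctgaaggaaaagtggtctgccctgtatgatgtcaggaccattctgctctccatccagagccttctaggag

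Capitals cover 101 of the 151 bases of the middle exon and none of the other pair, the exon of the catalytic cysteine included. A different first exon of 285 bases belongs to UBE2C-205 alone. Of the 1565 distinct 49-base stretches in the 8 transcripts, 39.0% were in 1 transcript, 13.3% in 2 and 47.7% in 3 or more. UBE2C-204 had no stretch of its own. These counts include stretches across joins between exons, and 68.1 to 74.6% of a transcript's stretches lay within 1 exon. The study aligned reads to the genome, and whether reads across joins were placed is not given in the sources used here. For 12.8% of the stretches, one of the 5 processed pseudogenes, UBE2CP1 to UBE2CP5 on chromosomes 14, 18, 4, 15 and 19, held a copy within 2 mismatches, which is the limit the aligner allowed. The study kept uniquely mapped reads, and how it counted a read shared by several isoforms is not given in the sources used here. What this sharing contributed to the isoform values was not tested.

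**Figure D1:**
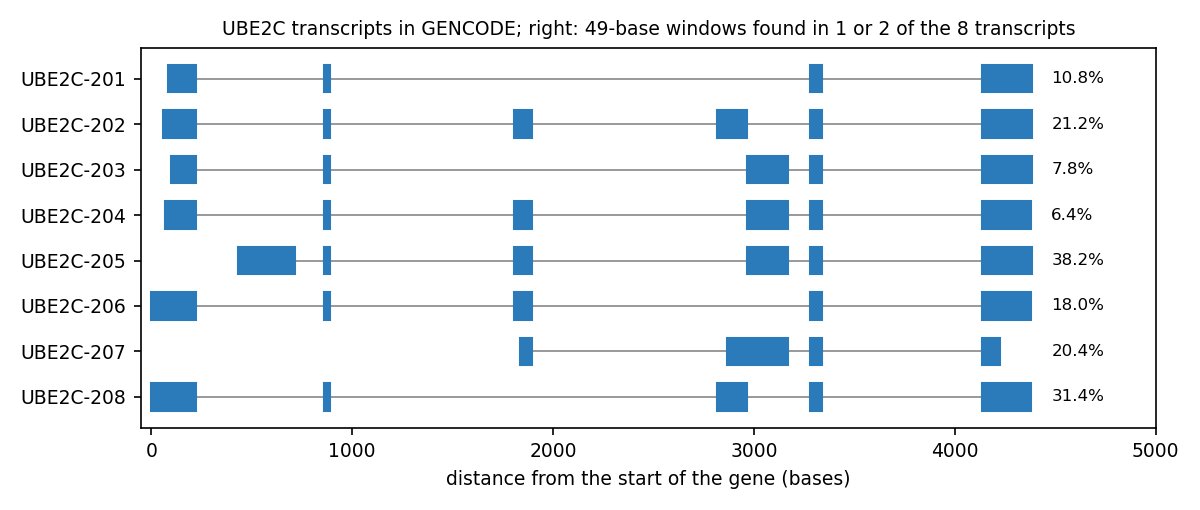
Exons (boxes) and introns (lines) of the 8 GENCODE transcripts of UBE2C, plotted by distance in bases from the start of the gene, with the share of each transcript's 49-base stretches that 1 or 2 of the 8 transcripts hold at the right. The share is highest in UBE2C-205 (38.2%), which has its own first exon, and lowest in UBE2C-204 (6.4%).

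The values are RPKM, which divide the reads on a transcript by its length and by a read total of the library, and a transcript missing from a list had no value and was set to 0. Whole read counts were recovered from the RPKM values, and they are lower bounds, since a length that is a multiple of the smallest one that gives whole reads gives whole reads too. The control list held all 6 UBE2C isoforms, the DMSO list 5 and the BDE-209 list 4. All of the isoforms were low, and together they had 19 recovered reads in the control, 36 in the DMSO sample and 30 in the BDE-209 sample. Recovered library totals were 4676793 to 4843624 reads, and the median transcript listed had 3.74 to 3.80 RPKM. These totals are the divisors that the RPKM values imply, and they are smaller than the mapped-read totals in the study's supplement, for a reason not given in the sources used here. Reads recovered over all transcripts came to 1.20 times each total, so some reads were counted on more than 1 transcript, and the UBE2C reads need not be distinct.

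NM_007019, the isoform RefSeq numbers 1 and the transcript of the full enzyme, was at 1.00 RPKM in the control (4 reads), 1.02 in the DMSO sample (4 reads) and 2.34 in the BDE-209 sample (9 reads). Its BDE-209 value stands above the other two, which are nearly equal. The counting intervals of its log2 ratios include an equal level, at -0.62 to 3.37 against control and -0.64 to 3.35 against DMSO. A difference beyond counting error is thus not shown. Even for a larger difference, RNA from whole cultures could not tell more expressing cells from more RNA per cell. Of other genes that mark dividing cells, CDC20 and CCNB1 had log2 ratios of -0.28 and -0.09 in BDE-209 against control, with 0.5 RPKM added. BUB1B and PTTG1 had 0.08 each on the same scale. Over the 15 transcripts of APC/C substrates the median was -0.10, in a range from -0.48 to 0.47. Both ends were AURKA transcripts with few reads, NM_003600 with 8 in the control and 4 in BDE-209, and NM_198434 with 0 and 2. Of the substrates with 1 listed transcript, PTTG1 and TPX2 (0.03) were above 0. The rest were below it, from -0.30 (AURKB) to -0.03 (NEK2). The share of dividing cells was not tested. NM_181799 had the highest mean of the isoforms, 2.38 RPKM, with 2.16 in the control, 1.64 in the DMSO sample and 3.35 in the BDE-209 sample. These rest on at least 4, 3 and 6 reads, at a length of 383 bases that is below the shortest GENCODE transcript. The next fitting length would give 8, 6 and 12 reads, so its level rests on few reads at either length.

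At the smallest fitting lengths, NM_181802 held more reads than any other isoform, 37 over the 3 samples. It was at 0.693 RPKM in the control (5 reads), 2.81 in the DMSO sample (20 reads) and 1.72 in the BDE-209 sample (12 reads). The control was its low sample, and both samples with DMSO were above it. NM_181801 was at 0.675 RPKM in the control (3 reads), 1.82 in the DMSO sample (8 reads) and 0.699 in the BDE-209 sample (3 reads). Its DMSO value was the highest, with a counting interval of 0.787 to 3.59 RPKM that overlaps those of both other samples.

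The remaining isoforms were at the limit of detection. NM_181803 was at 0.794 RPKM in the control (2 reads) and 0.402 in the DMSO sample (1 read), and was absent from the BDE-209 list, where 3 reads, the limit used here for a count of 0, would be 1.23 RPKM. NM_181800 had 1 read in the control, 0.277 RPKM, and was absent from both other lists, where 3 reads would be 0.843 and 0.862 RPKM. No difference between samples was detectable at this depth for either isoform. These limits and all intervals cover counting error only, with no spread between cultures, and PCR copies are not separate molecules.

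**Figure D2:**
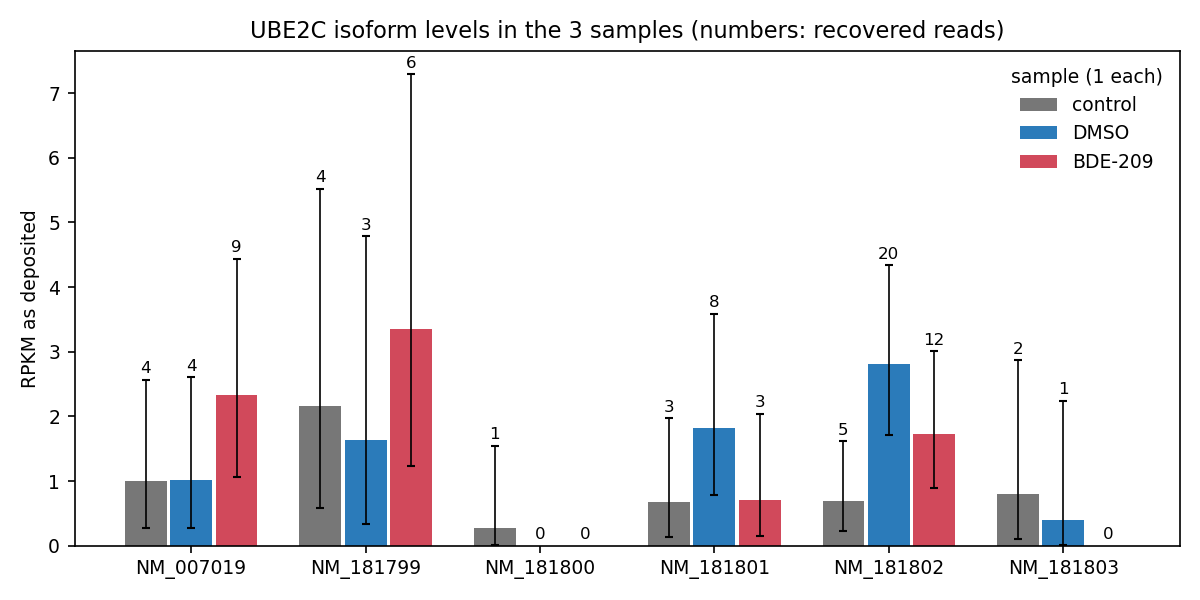
RPKM of the 6 UBE2C isoforms (bars) in the control, DMSO and BDE-209 samples, 1 sample each, with exact 95% Poisson intervals of the recovered reads, which are printed above the bars. NM_181799 and NM_007019 are highest in BDE-209, NM_181802 and NM_181801 in DMSO, and the intervals of an isoform overlap between all samples except those of NM_181802 in control and DMSO.

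The order of the isoforms by level differed among the samples. In the control it was NM_181799, NM_007019, NM_181803, NM_181802, NM_181801 and NM_181800. NM_181802 led in the DMSO sample, followed by NM_181801 at 1.82 RPKM and NM_181799 at 1.64 RPKM. The BDE-209 sample had NM_181799 first, then NM_007019 at 2.34 RPKM and NM_181802 at 1.72 RPKM. In each sample, the counting intervals of listed isoforms next to each other in the order overlapped.

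As a share of the UBE2C reads, NM_181802 took 26.3% in the control (exact Clopper-Pearson 95% interval 9.15 to 51.2%), 55.6% in the DMSO sample (38.1 to 72.1%) and 40.0% in the BDE-209 sample (22.7 to 59.4%). NM_007019 took 21.1%, 11.1% and 30.0% in the same order, with intervals of 6.05 to 45.6%, 3.11 to 26.1% and 14.7 to 49.4%. For each of these isoforms the 3 intervals overlap. The intervals take the UBE2C reads of a sample as distinct, but a read may have been counted on several isoforms. Their width can therefore be wrong, and no conclusion on the shares is drawn from their overlap. Per summed RPKM, where length is allowed for, NM_181799 rather than NM_181802 held the largest part in the control (38.5%) and in the BDE-209 sample (41.3%), and NM_181802 in the DMSO sample (36.5%). The read shares depend on the recovered lengths. At its next fitting length of 766 bases, within the range of the GENCODE transcripts, NM_181799 would have 8, 6 and 12 reads in the control, DMSO and BDE-209 samples.

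DMSO against control asks what the solvent alone did. NM_181802 was 4.05-fold higher in the DMSO sample, a log2 ratio of 2.02 with a counting interval of 0.56 to 3.79, and its interval was the only one of the isoforms that left out an equal level. With 0.5 RPKM added to both samples, which damps ratios of low values, it was 2.77-fold higher, and it was the 1 of 6 isoforms past 2-fold, beside 1.57% of all transcripts with a value in either sample. Among transcripts with a mean of at least 1 RPKM the same isoform was 1 of 4, beside 1.07%, but it passed this filter only through its DMSO value, as did NM_181801, so the count is a description. NM_181801 was 2.70-fold higher, with a log2 interval of -0.63 to 3.98. When nothing was added and zero was replaced by 0.5 RPKM, 2 of 6 isoforms, NM_181801 and NM_181802, were past 2-fold, beside 18.2% of all transcripts. Of transcripts with 5 to 50 reads over the 3 samples, 28.0% were past it, beside 2 of 4 isoforms. That range leaves out NM_181800 and NM_181803, which had 1 and 3 reads over the 3 samples. By this rule they were not past 2-fold in any comparison. The counting interval left out an equal level for 1 of 6 isoforms and for 5.88% of all transcripts. The log2 ratio was 0.02 for NM_007019 (-2.41 to 2.44) and -0.40 for NM_181799 (-3.17 to 2.17).

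BDE-209 against DMSO holds the solvent equal and asks what the flame retardant did. NM_007019 was 2.30-fold higher in the BDE-209 sample, a log2 ratio of 1.20 (-0.64 to 3.35), and NM_181799 was 2.05-fold higher, 1.03 (-1.20 to 3.66). NM_181801 had a log2 ratio of -1.38 (-3.93 to 0.68) and NM_181802 one of -0.70 (-1.87 to 0.40). Isoforms thus lay on both sides of an equal level, and all 4 intervals include it, as they do for 5 of 5 isoforms with a read in either sample; 4.16% of all transcripts had an interval that did not. With 0.5 RPKM added, 0 of 5 isoforms were past 2-fold, beside 1.74% of all transcripts, and 0 of 4 with a mean of at least 1 RPKM, beside 1.22%. With zero replaced by 0.5 RPKM and nothing added, 3 of 5 isoforms were past 2-fold, NM_007019, NM_181799 and NM_181801, beside 18.4% of all transcripts. Among transcripts with 5 to 50 reads these were 3 of 4, beside 28.9%. Because the gene was chosen with results of these same data known, such an excess is a description, here and in the other comparisons.

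BDE-209 against control sets both compounds against neither, and shares each of its samples with one of the comparisons above. NM_181802 was 2.49-fold higher in the BDE-209 sample, a log2 ratio of 1.31 (-0.29 to 3.17), NM_007019 was 2.33-fold higher, 1.22 (-0.62 to 3.37), and NM_181799 had a log2 ratio of 0.64 (-1.44 to 2.90). NM_181801 had 3 reads in each sample and is given no fold. With 0.5 RPKM added, 1 of 6 isoforms was past 2-fold, beside 1.5% of all transcripts. It was NM_181803, at 0 reads against 2, a difference that the depth could not show, and 0 of 3 isoforms with a mean of at least 1 RPKM were past it, beside 1.14%. With zero replaced by 0.5 RPKM and nothing added, NM_007019 and NM_181802 were past 2-fold, 2 of 6 beside 18.4% of all transcripts, and 2 of 4 beside 28.2% of transcripts with 5 to 50 reads. The counting interval left out an equal level for 0 of 6 isoforms and for 6.05% of all transcripts.

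**Figure D3:**
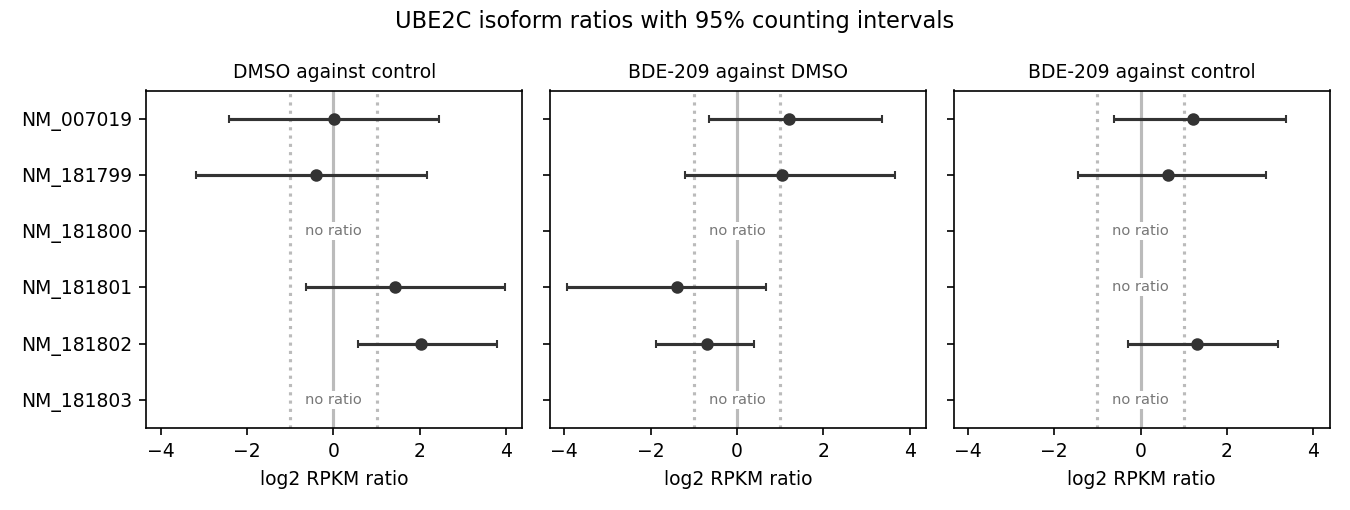
Log2 ratio of RPKM (points) with 95% counting intervals (bars) for each UBE2C isoform in the 3 comparisons. Dotted lines mark 2-fold, and "no ratio" stands where both samples had 3 reads or fewer. The interval of NM_181802 in DMSO against control, 0.56 to 3.79, is the only one that leaves out 0.

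Summed over the isoforms, the listed UBE2C values came to 5.60 RPKM in the control, 7.69 in the DMSO sample and 8.11 in the BDE-209 sample. How reads shared by isoforms were counted is not given in the sources used here. The sum therefore need not be the level of the gene. The sum was 1.37-fold higher in DMSO than in control, a log2 ratio of 0.46, and 1.45-fold higher in BDE-209 than in control, a log2 ratio of 0.53. Between BDE-209 and DMSO the log2 ratio of the sums was 0.08, but its direction depended on how isoforms were summed, with -0.23 for summed reads, -0.70 for NM_181802 alone and 0.39 without NM_181802. The sums carry no interval because reads were counted on more than 1 transcript. For BDE-209 against control the log2 ratio was 1.31 for NM_181802 alone and 0.38 without it. In DMSO against control NM_181802 decided the sum, since without that isoform the log2 ratio was -0.00798.

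The UBE2C values lie in a class of genes whose listed isoforms were low on median. Over the coding genes, the highest isoform of a gene had a median of 6.80 RPKM where 1 or 2 transcripts were listed (13797 genes) and 0.979 RPKM where 3 or more were listed (1404 genes). Transcripts of the first class had a median of 257 reads over the 3 samples, and those of the second 14. Of the recovered reads of a sample, 37.0 to 37.1% were on genes with 2 listed coding transcripts. Genes with 3 or more held 3.04 to 3.07%. With zero replaced by 0.5 RPKM, 12.8 to 13.2% of the transcripts of the first class were past 2-fold, depending on the comparison, and 31.7 to 32.7% of the second. UBE2C, whose highest isoform was at 2.38 RPKM, ranked 11 among the 34 genes with 6 listed transcripts, which ran from 0.0458 to 17.95 RPKM. Only 4 of its isoforms had a RefSeq gene symbol, and NM_181802 and NM_181803 were added by their identifiers. Other genes were counted by symbol alone, so their numbers can be too low and the rank compares unlike counts. Genes with 4 listed transcripts had a median of 0.809 RPKM. Among the classes with 3 to 6 transcripts the medians ran from 0.578 to 1.28 RPKM in no steady order. Sharing of exons was not measured for these genes, and the part of isoform number in the level of UBE2C was not tested.

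**Figure D4:**
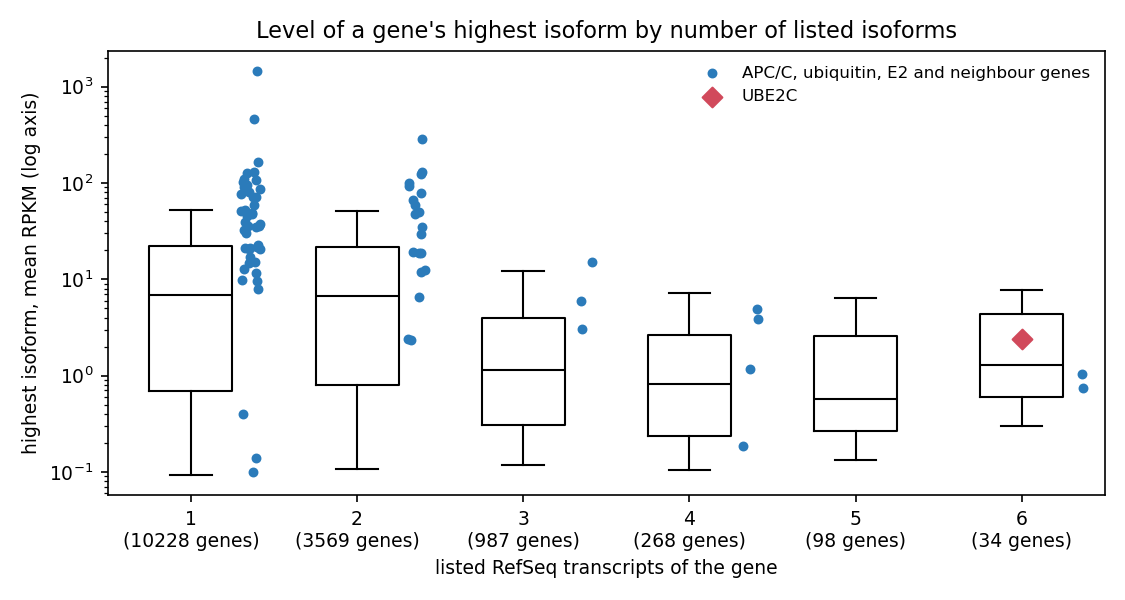
Mean RPKM over the 3 samples (log axis) of each gene's highest isoform, by the number of RefSeq transcripts listed for the gene. Boxes span the 25th to 75th percentile with the median as a line, whiskers the 10th to 90th percentile, blue points are the genes of the pathway and neighbour lists, and the red diamond is UBE2C at 2.38 RPKM, between the median of its class (1.28) and the level of the genes with 1 or 2 transcripts (6.80).

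Other genes that work with UBE2C, or lie beside it on chromosome 20, were read from lists of 76 genes with 129 or 130 transcripts in a comparison. With 0.5 RPKM added, 1 was past 2-fold upward and 1 downward in DMSO against control (1.55%), 1 upward and 1 downward in BDE-209 against DMSO (1.54%), and 0 in BDE-209 against control. The medians of their log2 ratios were 0.003, -0.012 and 0.008, beside 0.004, 0.005 and 0.008 over all transcripts. All 4 that were past 2-fold had under 1 RPKM on average and came from genes with at least 3 listed transcripts. Of these, 3 are named although their values chose them. UBE2V1 NM_199144, of an inactive E2 variant that pairs with UBE2N, had 2 reads in the control, 10 in DMSO and 7 in BDE-209. In the same order, RPS27A NM_001135592, of a ubiquitin fused to a ribosomal protein, had 2, 3 and 0 reads, and ANAPC11 NM_001002245, of the RING subunit of the APC/C, 1, 0 and 2.

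The APC/C itself, the ligase that UBE2C serves, had all 14 subunits listed, with 22 or 23 transcripts. Its median log2 ratio was 0.07 in DMSO against control, -0.04 in BDE-209 against DMSO and 0.06 in BDE-209 against control. The highest, ANAPC5 NM_001137559, of a scaffold subunit, was at 97.0, 88.3 and 94.6 RPKM in the control, DMSO and BDE-209 samples. All 9 activators, partner enzymes and inhibitors were listed, and 0 of their 14 transcripts were past 2-fold in any comparison. CDC20, the activator that works in mitosis, was at 106.5, 93.4 and 87.8 RPKM in the same order. UBE2S, which extends the chains that UBE2C begins, was highest in its list at 175, 164 and 158 RPKM. UBE2D1, an E2 that can start chains in place of UBE2C, was at 16.01, 13.95 and 13.94 RPKM. These 3 partners were measured with 174 or more reads in each sample.

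Of the 10 APC/C substrates, all were listed and 0 of 15 transcripts were past 2-fold in any comparison. PTTG1 (securin), which holds separase in check, was the highest at 125.9, 129.5 and 132.8 RPKM. CCNB1 (cyclin B1) was at 102, 89.9 and 95.2 RPKM. AURKA, a mitotic kinase with 6 listed transcripts by gene symbol, where UBE2C has 4, was also low. Its highest transcript, NM_198433, was at 1.21, 1.15 and 0.753 RPKM with 15, 14 and 9 reads. UBB, a ubiquitin gene, led the list of ubiquitin and E1 genes at 1489, 1463 and 1415 RPKM, and UBE2M, the NEDD8-conjugating E2, led the 30 other E2 enzymes at 110.2, 110.9 and 107.5 RPKM. Of the 7 neighbours on chromosome 20, DNTTIP1, a subunit of a mitotic deacetylase complex, was highest at 33.2, 37.0 and 37.5 RPKM. Of the listed transcripts with a mean of at least 1 RPKM, 0 in any of the 6 lists were past 2-fold in any of the 3 comparisons. Over the whole series, 161 of 15567 such transcripts were past it in DMSO against control. In BDE-209 against DMSO these were 172 of 15566, and in BDE-209 against control 146 of 15568. Within these lists, the 66 genes with 1 or 2 listed transcripts had a median highest isoform of 38.45 RPKM, and the 10 with 3 or more, AURKA, FZR1 and ANAPC11 among them, one of 3.09 RPKM.

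**Figure D5:**
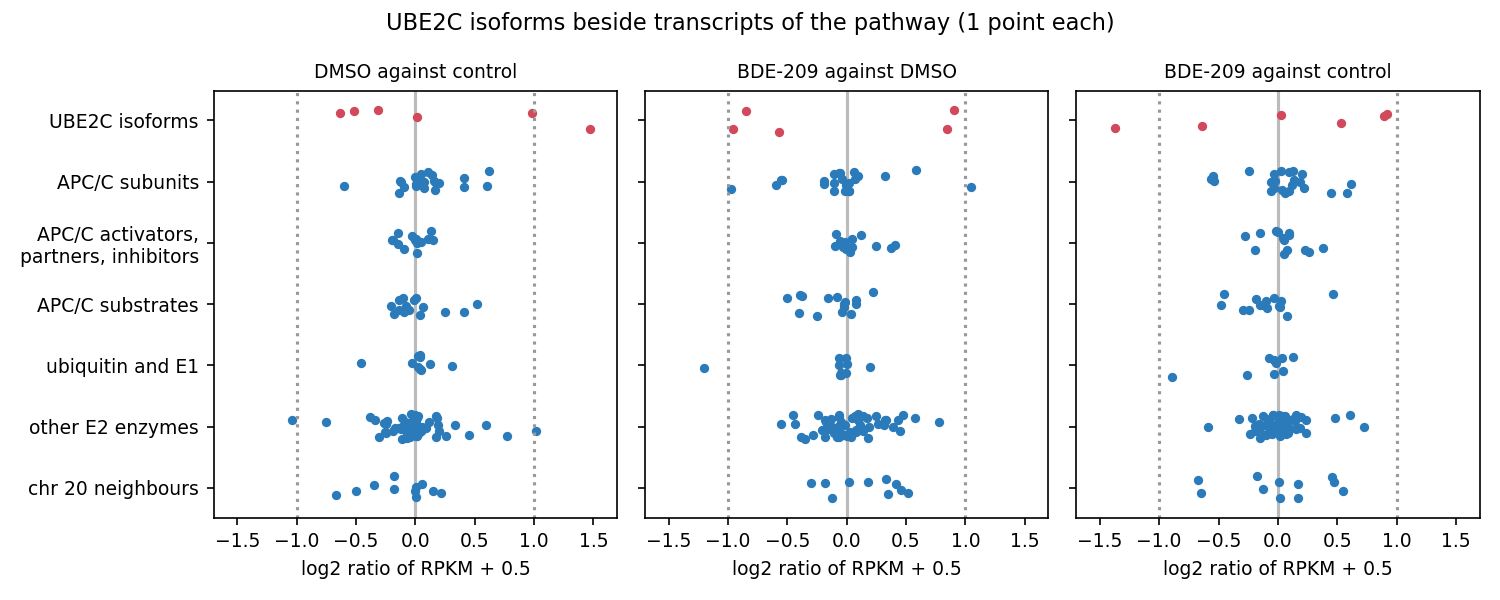
Log2 ratio of RPKM + 0.5 (1 point per transcript) for the UBE2C isoforms (red) and the 6 lists of related or neighbouring genes (blue) in the 3 comparisons, with dotted lines at 2-fold. UBE2C isoforms past the lines are NM_181802 in DMSO against control (1.47) and NM_181803 in BDE-209 against control (-1.37), and 4 list transcripts lie past them.

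Among transcripts with at least 10 RPKM in every sample (7730 candidates), the pattern most like that of NM_181799 over the 3 samples was sought by the distance between pairs of log2 ratios, DMSO over control and BDE-209 over DMSO. The nearest was MIR1181 at a distance of 0.391, with 10, 6 and 14 reads, followed by OCLNP1 at 0.479, SNHG12 at 0.497, SNORA40 at 0.506 and SNHG15 at 0.565. All 5 carry RefSeq identifiers of non-coding transcripts. SNHG12 was at 17.7, 10.8 and 16.9 RPKM in the control, DMSO and BDE-209 samples, so its BDE-209 value, unlike that of NM_181799, did not exceed the control. With 3 samples and, at its smallest fitting length, 3 to 6 reads on NM_181799, the likeness is a description.

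The line was checked against markers. Of 8 markers of HEK293 cells 7 were listed and PAX2 was not, with VIM at 261 to 299 RPKM, NEFM at 49.2 to 54.1 RPKM and LHX1 at 0.914 to 1.43 RPKM. Of 6 markers of other cell types, PTPRC, CD3E and HBB were absent, ALB had 1 read in each sample, PECAM1 8 to 14 reads and COL1A1 4.44 to 5.19 RPKM, and none was past 2-fold in any comparison.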

How the data were processed

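RNA from 1 control, 1 DMSO and 1 BDE-209 culture was sequenced, and samples were grouped by their treatment labels. The authors mapped the 49-base reads with SOAPaligner 2.21 (hg19, up to 2 mismatches), dropped reads that mapped to several places, and deposited an RPKM value for each RefSeq transcript with a read, written to 6 significant digits. Here, absent transcripts were set to 0. Library totals were recovered as the number that turns the 400 lowest values into whole lengths (cosine score 0.905 to 0.945, next best 0.169 to 0.265), and reads as the smallest whole counts at lengths from 49 bases, which failed for 5 transcripts. The smallest lengths for UBE2C isoforms were 383 (NM_181799) to 1490 bases (NM_181802). The first is below the shortest GENCODE transcript (476 bases) and the second beyond the longest (914 bases). With 1 sample per group there was no test. Ratios carry exact 95% Clopper-Pearson intervals of the split of reads at the recovered totals, and calls were 2-fold on RPKM + 0.5. The scripts were tested on simulated counts. Python 3.11.15, numpy 2.4.6 and scipy 1.17.1 were used.

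Exons were read from GENCODE 44 lifted to GRCh37, and symbols from a RefSeq table of GRCh38.p14, which matched 24434 of 25443 transcripts and 4 of the 6 isoforms (not NM_181802 and NM_181803). The isoforms and lists were chosen with earlier results of these data known. Named were all isoforms, the highest transcript of each list, list transcripts past 2-fold with a mean of at least 1 RPKM (0 met this), CDC20, UBE2S, UBE2D1 and CCNB1, and the 5 transcripts most like the highest isoform. UBE2V1, RPS27A and ANAPC11 transcripts are named outside this rule, after their values were seen. Alternatives changed the added value, the fold, the filter, the scaling and the way isoforms were summed. The call by counting interval, the background of 5 to 50 reads, the next length for NM_181799 and the sum without NM_181802 were chosen after seeing the data. The values of 1 list transcript past 2-fold are not reported here.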

Additional observations from a re-analysis of the deposited data

How the results depend on the processing

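The 11 log2 ratios of isoforms with more than 3 reads in either sample kept their direction under median-of-ratios scaling, and the scaling changed no count. Its size factors were 0.9987 to 1.004, so it could change little. An equal value added to both samples cannot change the sign of a ratio. Zero replacement left these ratios as they were, since none held a 0, so neither setting could test their direction. NM_181800 and NM_181803 had 3 reads or fewer in every sample and are given no ratio. Where 1 of the samples compared had 0 reads on them, the sign can depend on the value that stands for 0. Counts past 2-fold depended on how low values were treated. For UBE2C isoforms in DMSO against control the count of 1 became 3 with 0.1 RPKM added, 2 with zero replaced by 0.5 RPKM and 3 at 1.5-fold. In BDE-209 against DMSO the count of 0 became 3, 3 and 4 in the same order. In BDE-209 against control the count of 1 became 4, 2 and 4, and 0 with 1 RPKM added or with a mean of at least 1 RPKM. For the pathway, E2 and neighbour lists the count of 2 in DMSO against control became 11, 14 and 9, and 0 with 1 RPKM added or a mean of at least 1 RPKM. In BDE-209 against DMSO the count of 2 became 14, 17 and 5, and 0 under the latter pair. In BDE-209 against control the count of 0 became 13, 16 and 7. With zero replaced by 0.5 RPKM, 18.2%, 18.4% and 18.4% of all transcripts were past 2-fold in the 3 comparisons. The share of all transcripts was not computed with 0.1 or 1 RPKM added or at 1.5-fold. Counts at those settings therefore show only how calls depend on the setting. The summed log2 ratio in DMSO against control, 0.46, was 2.02 for NM_181802 alone, -0.00798 without it and 0.94 for summed reads. In BDE-209 against DMSO, 0.08 became -0.70, 0.39 and -0.23 in that order, a change of direction, and in BDE-209 against control 0.53 became 1.31, 0.38 and 0.71. At its next fitting length of 766 bases, NM_181799 had counting intervals of -2.20 to 1.32, -0.49 to 2.73 and -0.78 to 2.13 for the 3 comparisons, which still include 0. No paired analysis was possible because each condition had 1 sample, and no sample could be left out. Depth set the limits, since 1 read was worth 0.139 to 0.558 RPKM on these isoforms.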
